A study of Mus musculus with 6 samples.

Results

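Mineralization and late osteoblast genes were followed in mouse bone marrow stromal cells (BMSC), a culture of adherent cells able to give rise to osteoblasts, with or without the chromatin protein HRP2. The set holds 10 genes, Alpl, Phospho1, Enpp1, Phex, Bglap, Bglap2, Spp1, Ibsp, Dmp1 and Mepe, chosen by symbol, and all 10 were found among the 18853 genes of the deposited table. RNA sequencing covered 3 HRP2-KO samples (replicates 6, 7 and 44) and 3 wild-type (WT) samples (replicates 10, 11 and 12). All 6 were mouse BMSCs from bone marrow, grown in αMEM with 10% FBS, with no other treatment or allele named for either genotype. No osteogenic medium is named in the labels, so whether the cultures had been driven toward osteoblasts is unknown. The labels also give no age, sex or strain, no design of the knocked-out allele, and no statement that the samples came from separate animals. The p-values therefore measure the spread between these samples, and how much of it is technical is unknown.

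Bone mineral is calcium phosphate laid down on collagen, and its deposition depends on the local balance of phosphate, which forms the crystal, and pyrophosphate, which blocks it. Osteoblasts release phosphate with alkaline phosphatase and PHOSPHO1, produce pyrophosphate with ENPP1, and secrete acidic phosphoproteins and osteocalcin that bind the mineral. Alpl appears early in this program, Ibsp and osteocalcin appear late, and Dmp1, Phex and Mepe mark mineralizing osteoblasts and osteocytes, the cells that osteoblasts become inside bone.

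The osteocalcin pair is shown first because its sequence limits what the counts can say. Bglap and Bglap2 both encode osteocalcin and, with Bglap3, lie within 15.9 kb of chromosome 3 on the minus strand (GRCm38.p6, 88368616 to 88384466). Their coding sequences, from the GENCODE M21 transcripts and without the stop codon, are 285 bases each and differ at 4 bases, shown in capitals.
Bglap: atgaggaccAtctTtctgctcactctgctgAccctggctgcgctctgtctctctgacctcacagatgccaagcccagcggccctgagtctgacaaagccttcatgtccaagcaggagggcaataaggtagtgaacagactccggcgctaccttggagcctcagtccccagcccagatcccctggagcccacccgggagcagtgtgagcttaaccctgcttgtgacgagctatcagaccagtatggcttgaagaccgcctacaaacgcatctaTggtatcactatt
Bglap2: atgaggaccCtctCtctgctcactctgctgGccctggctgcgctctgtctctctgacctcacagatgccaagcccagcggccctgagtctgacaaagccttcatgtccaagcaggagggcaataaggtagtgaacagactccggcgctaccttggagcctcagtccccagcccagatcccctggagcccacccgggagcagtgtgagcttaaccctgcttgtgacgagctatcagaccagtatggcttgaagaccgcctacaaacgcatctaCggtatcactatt
Of the 50-base windows of the Bglap transcript, 74.7% also occurred in a transcript of Bglap2 or Bglap3, and of the windows of the Bglap2 transcript 88.2% occurred in Bglap or Bglap3. With 100-base windows the shares were 56.3% for Bglap and 57.0% for Bglap2. Neither read length nor the rule for dividing shared reads was stated, so the split of counts between these genes is uncertain.

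Promoters are shown for Alpl, Bglap, Spp1 and Ibsp, 4 members whose levels differed widely between libraries and in different ways. Each runs from 250 bases before to 50 bases after the annotated start (RefSeq, GRCm38.p6), at the more upstream start where 2 are annotated. Capitals mark every match, on either strand, to 4 motifs, and adjoining matches run together. The core bound by RUNX factors was searched as ACCACA, and the TATA element of core promoters as TATAAA. The element bound by AP-1 was searched as TGANTCA, and the GC-rich element bound by SP factors, here called the GC box, as GGGCGG.
Alpl (chr4:137796335-137796634, minus strand): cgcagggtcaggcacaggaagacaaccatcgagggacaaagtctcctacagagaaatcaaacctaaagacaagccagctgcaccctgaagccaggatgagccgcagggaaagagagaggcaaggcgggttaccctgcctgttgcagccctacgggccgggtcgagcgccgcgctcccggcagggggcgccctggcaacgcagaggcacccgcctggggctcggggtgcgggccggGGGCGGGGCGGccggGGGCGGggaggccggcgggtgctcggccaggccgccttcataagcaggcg
Bglap (chr3:88384417-88384716, minus strand): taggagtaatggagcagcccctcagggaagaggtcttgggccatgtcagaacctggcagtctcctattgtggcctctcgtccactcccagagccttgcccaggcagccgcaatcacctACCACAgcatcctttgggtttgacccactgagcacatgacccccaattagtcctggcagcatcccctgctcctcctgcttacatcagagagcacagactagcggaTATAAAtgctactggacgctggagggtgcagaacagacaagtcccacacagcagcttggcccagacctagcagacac
Spp1 (chr5:104434861-104435160, plus strand): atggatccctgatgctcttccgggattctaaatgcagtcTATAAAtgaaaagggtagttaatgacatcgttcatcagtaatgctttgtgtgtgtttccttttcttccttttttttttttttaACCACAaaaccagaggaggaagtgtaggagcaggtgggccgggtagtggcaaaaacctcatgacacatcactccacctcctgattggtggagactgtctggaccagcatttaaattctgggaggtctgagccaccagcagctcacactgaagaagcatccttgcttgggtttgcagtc
Ibsp (chr5:104299037-104299336, plus strand): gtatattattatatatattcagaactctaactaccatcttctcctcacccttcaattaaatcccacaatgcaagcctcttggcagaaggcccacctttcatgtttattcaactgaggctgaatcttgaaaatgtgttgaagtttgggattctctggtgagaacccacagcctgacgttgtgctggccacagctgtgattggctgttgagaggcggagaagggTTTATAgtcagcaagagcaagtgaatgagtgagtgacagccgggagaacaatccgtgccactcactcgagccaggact
The Alpl window held 3 GC boxes, of which the first 2 share a base and the last begins at the start site, and none of the other letters searched. The Bglap window held ACCACA 132 bases before the start and TATAAA 27 bases before it. The Spp1 window held ACCACA 128 bases before the start and the letters TATAAA 211 bases before it, while the Ibsp window held a single match, TATAAA on the opposite strand 28 bases before the start. Across the 9 members with a promoter in the RefSeq table, each at that start, ACCACA was found in 4, against 16.8% of all 32851 annotated promoter windows of that length. TATAAA was likewise found in 4 members, against 13.6% of all windows. GGGCGG was found in 3 members against 35.7%, and TGANTCA in 1 member, Phospho1, against 7.81%. These matches describe the letters of the windows and say nothing of which factors bind there.

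No member was separated by genotype. Of the 8 members with enough counts to be tested, 0 passed the threshold (adjusted p of 0.05 over all 13696 tested genes, edgeR's quasi-likelihood test), where 0.0073% of all tested genes did. The unadjusted p was below 0.05 for 0 of the 8, against 21.8% of all tested genes. DESeq2 also called 0 of the 10 it fitted, against 10.1% of the genes to which it gave an adjusted p. The 10 include Mepe, whose single count leaves it no room to be called, so the bases of these shares differ. In 0 of the 8 did the HRP2-KO values all lie above or all lie below the WT values, whereas 31% of tested genes were separated in this way. The fitted change was positive in 6 of the 8, against 51% of all tested genes, with a median log2 fold change of 0.36 against 0.02 for all tested genes.

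The libraries were of even depth, with 20184500 to 20680800 estimated counts each, so that a gene with 0 counts could still be present at up to 0.139 to 0.16 CPM (counts scaled to library size; the limit is 3 counts, counting error only). Levels per library are given below in CPM with TMM normalization. Hdgfl2, the gene of HRP2, stood at 6.59, 5.56 and 11.8 CPM in the HRP2-KO libraries (6, 7, 44), against 51.4, 56.2 and 58.2 CPM in WT replicates 10, 11 and 12. It averaged 7.98 ± 3.35 CPM in HRP2-KO and 55.3 ± 3.52 CPM in WT (SD, n = 3 each), with a log2 fold change of -2.79 ± 0.32 (adjusted p = 0.0711 in edgeR, 2.9e-10 in DESeq2), and all HRP2-KO libraries lay below all WT libraries. HRP2-KO replicate 7 stood apart from the other HRP2-KO libraries: across genes its log2 CPM correlated at 0.884 and 0.861 with replicates 6 and 44, and at 0.912 to 0.934 with the WT libraries. Without HRP2-KO replicate 7, edgeR called 24.1% of tested genes, and still 0 of the 8 members. The Y-linked gene Ddx3y, picked after its values were seen, stood at 0, 0.0535 and 32.0 CPM in the HRP2-KO libraries (6, 7, 44) and at 0, 107 and 58.2 CPM in WT replicates 10, 11 and 12, so libraries with and without Y-linked RNA occurred in each genotype. The spread within each genotype thus includes a difference in Y-linked RNA, and its relation to the member levels was not tested. The labels name no batch, and an effect of batch cannot be told apart from genotype.

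**Figure D1:**
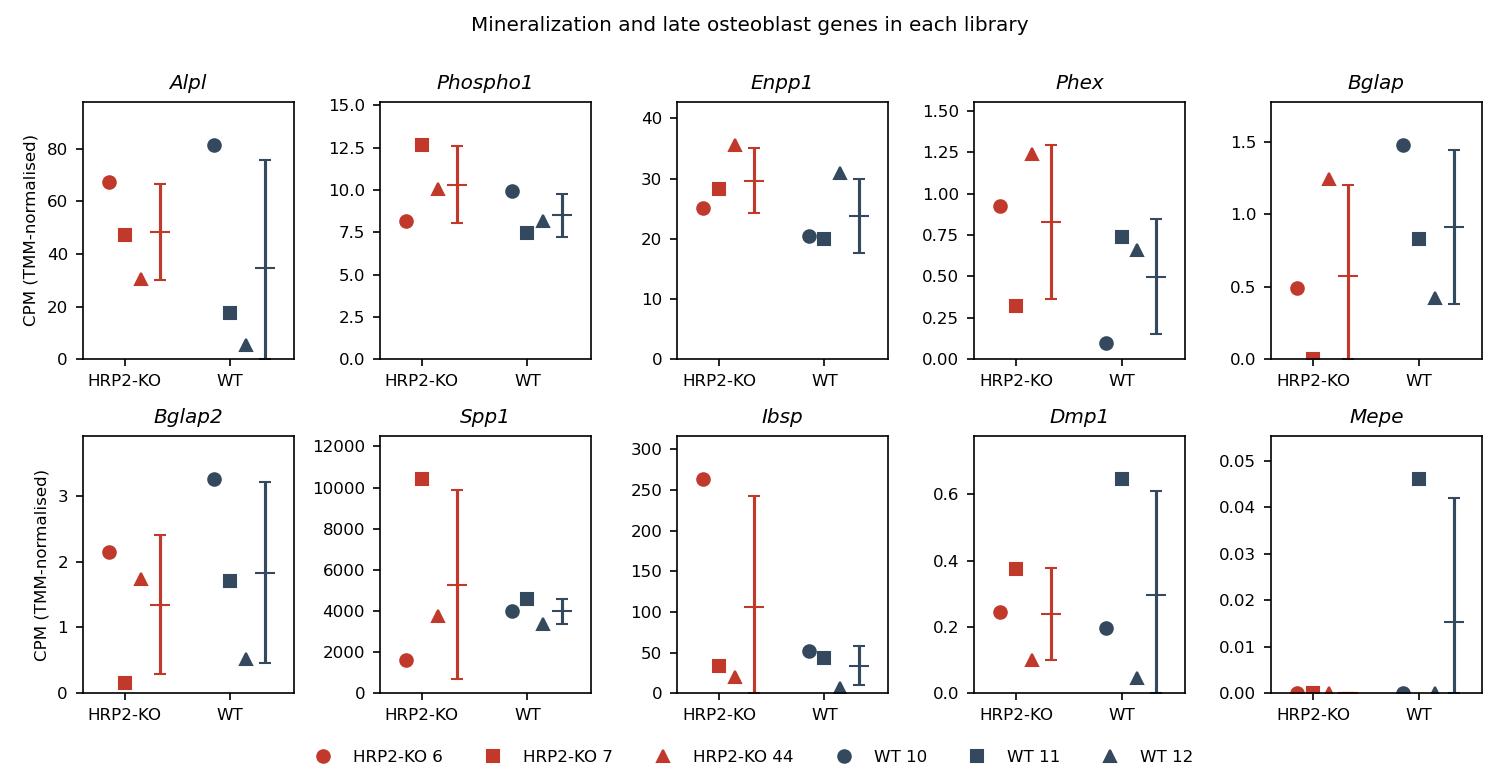
TMM-normalised CPM (linear axes from 0, a scale per gene) of the 10 genes in the HRP2-KO libraries (red, left) and the WT libraries (dark blue, right); symbols mark replicates, and the bars at the right of each group are mean ± SD of 3 libraries, cut at 0. The groups overlap in each of the 8 tested genes, and Dmp1 and Mepe stay below 1 CPM in all libraries.

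Among the enzymes that set the phosphate and pyrophosphate balance, Alpl encodes tissue-nonspecific alkaline phosphatase, which splits pyrophosphate and releases phosphate (Entrez 11647, GRCm38.p6 chromosome 4, 137741731 to 137796384, minus strand). Its HRP2-KO levels were 67.3, 47.3 and 30.7 CPM in replicates 6, 7 and 44, and its WT levels were 81.6, 17.5 and 5.27 CPM in replicates 10, 11 and 12. The highest and the lowest library were thus both WT, 15.5-fold apart, and the 3 HRP2-KO values lay between them. Group means were 48.4 ± 18.3 CPM in HRP2-KO and 34.8 ± 41.0 CPM in WT (SD, n = 3 each), with a log2 fold change of 0.48 ± 0.91 (SE) and an adjusted p of 0.768 in edgeR. The 95% interval of the change ran from 0.303-fold to 6.38-fold. Without WT replicate 12 the log2 fold change was -0.033, and without WT replicate 10 it was 2.09 (adjusted p = 0.309).

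Phospho1 encodes a phosphatase that frees phosphate from phosphocholine and phosphoethanolamine inside matrix vesicles, the membrane particles in which mineral first forms (chromosome 11, 95824500 to 95832140, plus strand). It stood at 8.15, 12.7 and 10.1 CPM in the HRP2-KO libraries (6, 7, 44) and at 9.92, 7.43 and 8.15 CPM in WT replicates 10, 11 and 12. All 6 libraries fell within a 1.71-fold range, the narrowest of the members. The log2 fold change was 0.28 ± 0.27 (adjusted p = 0.541, edgeR), with a 95% interval from 0.777-fold to 1.89-fold.

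Enpp1 encodes the ectoenzyme that makes pyrophosphate from extracellular nucleotides and so opposes alkaline phosphatase (chromosome 10, 24637914 to 24712159, minus strand). It stood at 25.1, 28.3 and 35.6 CPM in the HRP2-KO libraries (6, 7, 44) and at 20.5, 19.9 and 30.9 CPM in WT replicates 10, 11 and 12. WT replicate 12 overlapped the HRP2-KO libraries, while the other WT libraries lay below all 3. The log2 fold change was 0.32 ± 0.25 (adjusted p = 0.459, edgeR), with a 95% interval from 0.820-fold to 1.90-fold. For these 2 enzymes the interval excludes a change of 2-fold in either direction, which it does not for Alpl.

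Phex, an X-linked gene (chromosome X, 157162075 to 157415286, minus strand), encodes a membrane endopeptidase of osteoblasts and osteocytes whose loss causes phosphate wasting and soft bone. It was close to the detection limit, with 19.4, 5.59 and 25.4 estimated counts in HRP2-KO replicates 6, 7 and 44 and 2.03, 16.4 and 14.35 in WT replicates 10, 11 and 12. In CPM this was 0.927, 0.321 and 1.24 in HRP2-KO and 0.0987, 0.739 and 0.659 in WT. A single HRP2-KO library was within the WT range, replicate 7, and WT replicate 10 was the lowest of all. The log2 fold change was 0.72 ± 0.80 (adjusted p = 0.597, edgeR), and it was -0.54 with the mean level of 12 macrophage markers as a covariate. With each library left out in turn it ran from 0.25 (without WT replicate 10) to 1.14 (without HRP2-KO replicate 7).

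Osteocalcin, the small vitamin K-dependent protein of bone matrix and a usual sign of late osteoblasts, was low in both genotypes. Bglap (Entrez 12096, chromosome 3, 88383495 to 88384466) had 9.74, 0 and 24.7 estimated counts in HRP2-KO replicates 6, 7 and 44 and 29.6, 18.3 and 8.93 in WT replicates 10, 11 and 12. Bglap2 (Entrez 12097, chromosome 3, 88377736 to 88378701) had 43.8, 2.89 and 35.0 in HRP2-KO and 66.45, 37.0 and 10.9 in WT. The 0 of Bglap in HRP2-KO replicate 7 allows a level of up to 0.16 CPM. For both genes WT replicate 10 was the highest library and HRP2-KO replicate 7 the lowest.

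The log2 fold change was -0.65 ± 1.12 for Bglap (adjusted p = 0.742) and -0.43 ± 0.97 for Bglap2 (adjusted p = 0.801), both in edgeR. The Bglap2 value was 0.14 without HRP2-KO replicate 7 and 0.28 without WT replicate 10, and the Bglap value was -0.019 without HRP2-KO replicate 7 and -1.84 without HRP2-KO replicate 44. Because the coding sequences printed above are so alike, the 3 osteocalcin genes were also summed. The sum held 55, 8.96 and 64 estimated counts in HRP2-KO replicates 6, 7 and 44 and 102, 58.0 and 23 in WT replicates 10, 11 and 12, with a log2 fold change of -0.47 ± 0.81 (adjusted p = 0.742, edgeR). Bglap3, the third copy, added at most 6.07 counts in any library. That library was HRP2-KO replicate 7, where Bglap3 made up most of the sum of 8.96.

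The SIBLING family of acidic, integrin-binding or mineral-binding matrix proteins lies in a row on chromosome 5, all on the plus strand, in the order Dspp, Dmp1, Ibsp, Mepe and Spp1 over 270.4 kb (GRCm38.p6, 104170703 to 104441053). Per transcript length, the neighbours differed by orders of magnitude in the same libraries. Spp1 ranked 6 of 18853 genes by mean TPM (scaled to transcript length and library size), with 2493 to 14569 TPM in HRP2-KO and 5384 to 7721 TPM in WT. Ibsp ranked 2186, with 16.4 to 288 TPM in HRP2-KO and 7.51 to 56.4 TPM in WT. Dmp1 stood at 0.06 to 0.26 TPM in HRP2-KO and 0.04 to 0.55 TPM in WT, and Mepe at 0 TPM in all HRP2-KO libraries and at 0 to 0.07 TPM in WT. Dspp, a dentin gene that is no member, had no count in any library. Mepe lies 13.9 kb downstream of Ibsp and Spp1 lies 96.5 kb beyond Mepe.

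**Figure D2:**
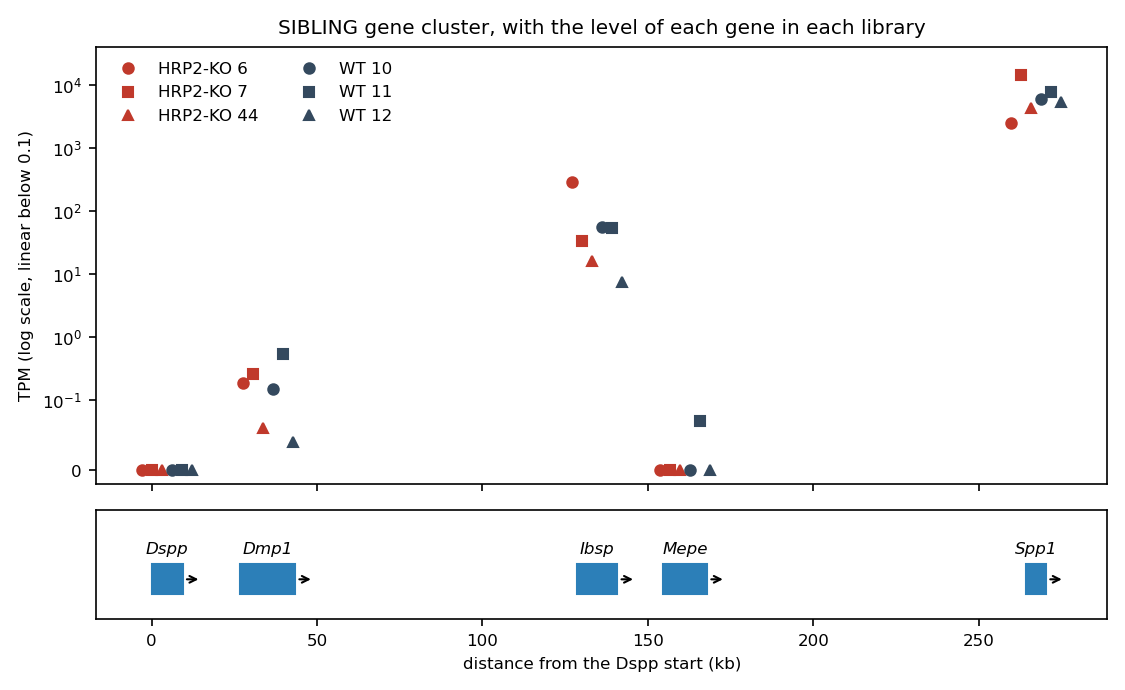
Deposited TPM of each SIBLING gene in each library (upper part, log axis that is linear below 0.1 TPM; red, HRP2-KO; dark blue, WT; points of a gene are spread sideways) above the gene spans (lower part, distance from the Dspp start in kb, arrows in the direction of transcription). Spp1 lies at 2493 TPM or more and Dmp1, Mepe and Dspp at 0.55 TPM or less in every library, with Ibsp between them.

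Spp1 encodes osteopontin, a phosphoprotein that binds mineral and integrins and inhibits crystal growth, and which macrophages and osteoclasts also secrete (Entrez 20750, chromosome 5, 104435111 to 104441053). It stood at 1645, 10431 and 3743 CPM in the HRP2-KO libraries (6, 7, 44) and at 4026, 4572 and 3360 CPM in WT replicates 10, 11 and 12. The lowest and the highest library were both HRP2-KO, 6.34-fold apart, and the WT libraries lay close together between them. Means were 5273 ± 4589 CPM in HRP2-KO and 3986 ± 607 CPM in WT (SD, n = 3 each), with a log2 fold change of 0.40 ± 0.65 and an adjusted p of 0.724 in edgeR. The sign rests on HRP2-KO replicate 7, since the log2 fold change was -0.51 without it (adjusted p = 0.414), and it was -0.23 on the log2(TPM + 1) scale, where the median of all genes was itself -0.21.

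Macrophage RNA was plentiful and uneven in these cultures. All 12 macrophage markers had counts in every library, among them Csf1r, Adgre1, Lyz2 and C1qa. Their summed level was 1250, 14363 and 2498 CPM in HRP2-KO replicates 6, 7 and 44 and 25558, 10679 and 9955 CPM in WT replicates 10, 11 and 12. In edgeR with all libraries, 3 of the 12 had a positive and 9 a negative fitted change, against 51% of all tested genes positive. Of the 12, 0 passed the threshold. HRP2-KO replicate 6 was lowest in both macrophage markers and Spp1. HRP2-KO replicate 7, highest in Spp1, ranked just below WT replicate 10 in macrophage markers, while WT replicate 10 itself and HRP2-KO replicate 44 differed little in Spp1, at 4026 and 3743 CPM, but widely in summed macrophage markers. With the mean macrophage level as a covariate the Spp1 log2 fold change was 1.08 ± 0.43 (unadjusted p = 0.0453, adjusted p = 0.366, edgeR). In the same fit the log2 fold change was 0.21 for Ibsp, 1.23 for Alpl, 0.59 for Phospho1, -2.06 for Bglap and -1.97 for Bglap2, and none passed the threshold. In bulk RNA, fewer cells of a type and less RNA per cell cannot be told apart.

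Osteoclast markers were low next to those of macrophages. Of the 8, Dcstamp, Ocstamp and Calcr had at most 2 counts in any library, and the list summed to 57.9, 67.8 and 60.3 CPM in HRP2-KO and 53.1, 39.2 and 37.9 CPM in WT, most of it Ctsk, which stromal cells also express. The sum joined genes that separated in opposite directions, named after their values were seen. Ctsk lay wholly above WT (adjusted p = 0.0970, edgeR). Atp6v0d2 stood at 1.07, 3.26 and 0.446 CPM in HRP2-KO and at 15.6, 11.4 and 5.18 CPM in WT (adjusted p = 0.146, edgeR). Of the 5 tested, 1 lay wholly above and 2 wholly below WT, against 17% and 14% of all tested genes. The other below WT was Oscar, at 0.942 CPM or less.

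Ibsp encodes bone sialoprotein, which nucleates mineral and appears as osteoblasts mature (Entrez 15891, chromosome 5, 104299287 to 104311472). It stood at 264, 33.8 and 19.98 CPM in the HRP2-KO libraries (6, 7, 44) and at 52.0, 43.9 and 6.50 CPM in WT replicates 10, 11 and 12. HRP2-KO replicate 6 was far above all others, the other HRP2-KO libraries lay within the WT range, and the full range was 40.6-fold, the widest among members with a count in every library. Means were 106 ± 137 CPM in HRP2-KO and 34.1 ± 24.3 CPM in WT (SD, n = 3 each), with a log2 fold change of 1.63 ± 1.15 and an adjusted p of 0.418 in edgeR. Without HRP2-KO replicate 6 it was -0.33 (adjusted p = 0.843). The cartilage collagen gene Col2a1 was also high in HRP2-KO replicate 6, at 260 CPM, against 7.22 and 2.78 CPM in HRP2-KO replicates 7 and 44 and 16.1, 16.9 and 9.70 CPM in WT, while Acan, Col9a1 and Ihh had at most 0.395 CPM in any library. The 7 cartilage markers summed to 276, 1070 and 30.5 CPM in HRP2-KO and 63.3, 640 and 234 CPM in WT, the highest sums being mostly Comp. Their part in the Ibsp value was not tested.

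The osteocyte-stage members were almost absent. Dmp1, which encodes a matrix phosphoprotein of osteocytes (chromosome 5, 104197575 to 104214102), had 5, 7 and 2 estimated counts in HRP2-KO replicates 6, 7 and 44 and 4, 14 and 1 in WT replicates 10, 11 and 12. Mepe, which encodes a matrix phosphoglycoprotein of osteocytes (chromosome 5, 104325329 to 104338611), had a single count, in WT replicate 11. Both failed the filter on low counts, and a difference between the genotypes was not detectable at this depth. Among other osteocyte genes, Sost, the secreted Wnt inhibitor sclerostin, had 1 count in HRP2-KO replicate 7 and none elsewhere.

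**Figure D3:**
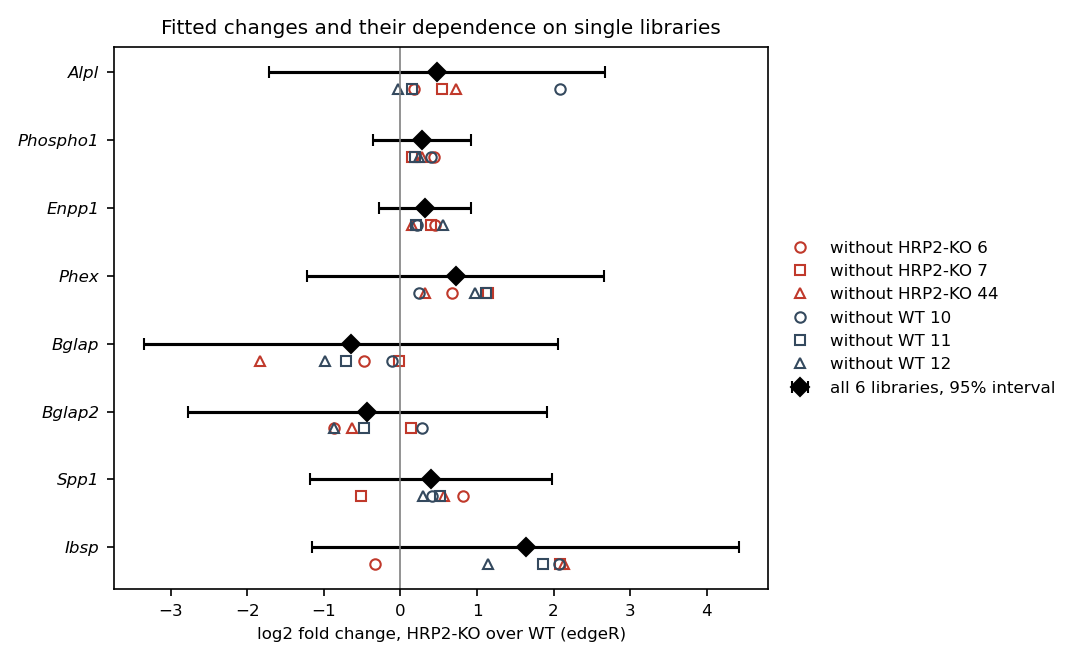
Fitted log2 fold change, HRP2-KO over WT, of the 8 tested members (edgeR; black diamonds with 95% intervals) and the same value with each library left out in turn (open symbols; red, an HRP2-KO library left out; dark blue, a WT library). All 8 intervals include 0, and the value changes sign on leaving out a library for Alpl (WT 12), Bglap2 (HRP2-KO 7 or WT 10), Spp1 (HRP2-KO 7) and Ibsp (HRP2-KO 6).

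The members did not share a highest or a lowest library. Their spread within a genotype was wide: 6 of the 8 tested members had a within-group SD of log2 CPM above the median of all tested genes, 0.38, from 0.96 for Spp1 to 1.82 for Ibsp, while Phospho1 and Enpp1 were at 0.27 and 0.31. The library with the highest level was HRP2-KO replicate 6 for Ibsp, HRP2-KO replicate 7 for Spp1 and Phospho1, HRP2-KO replicate 44 for Enpp1 and Phex, and WT replicate 10 for Alpl, Bglap and Bglap2. The lowest was WT replicate 12 for Alpl and Ibsp and HRP2-KO replicate 7 for both osteocalcin genes. Across the 6 libraries, the 3 genes of at least 5 CPM whose log2 CPM was most like that of Alpl were Ece2, Adgrg6 and Haus2, with Pearson r of 0.984, 0.960 and 0.959 among 11068 genes compared. For Spp1 they were Irf1, Map3k10 and Igtp, with r of 0.996, 0.977 and 0.956. With this many genes and 6 libraries such values are a description only.

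**Figure D4:**
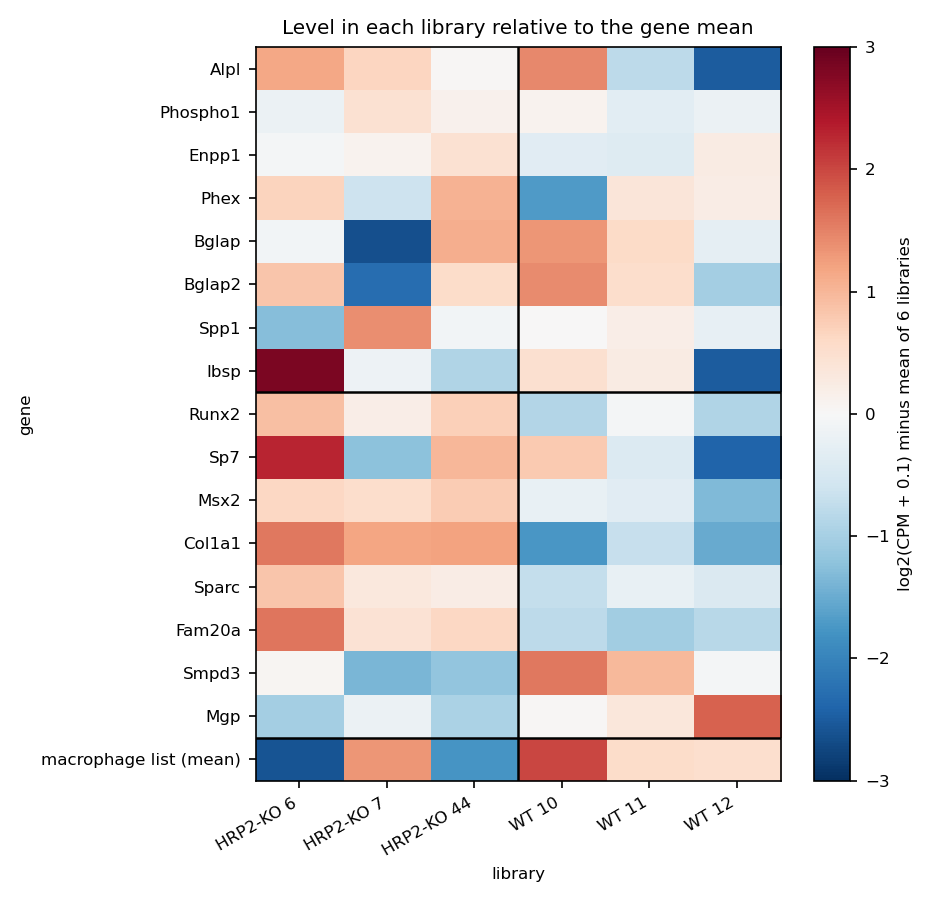
Level of each gene in each library as log2(CPM + 0.1) minus its mean over the 6 libraries (colour, cut at -3 and 3), for the tested members (top), genes of the same pathway (middle) and the mean of the 12 macrophage markers (bottom); HRP2-KO libraries are left of the vertical line and WT libraries right of it. The members show no common split at the line. Among the pathway genes, a selection, Col1a1, Runx2, Msx2, Sparc and Fam20a are higher in each HRP2-KO library than in any WT library. Mgp is lower in each, and Sp7 and Smpd3 overlap. Of all tested genes, 17% lay wholly above WT and 14% wholly below.

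The wider osteoblast program was read through a list set with earlier results of these data known, and the members were not tested against it. Of 11 regulators and bone collagen genes, 10 had a positive fitted change, the median was 1.18 on the log2 scale, and 0 passed the threshold over all genes. In 5 of them HRP2-KO lay entirely above WT, against 17% of all tested genes. Col1a1, the main collagen chain of bone, stood at 15733, 11936 and 12153 CPM in the HRP2-KO libraries (6, 7, 44) and at 1584, 3288 and 1855 CPM in WT replicates 10, 11 and 12, with an adjusted p of 0.0939. Runx2, the factor that commits cells to the osteoblast lineage, stood at 89.0, 54.5 and 78.3 CPM in HRP2-KO and 26.0, 46.0 and 25.5 CPM in WT (adjusted p = 0.131). Sp7, which encodes osterix and acts after Runx2, overlapped between genotypes, at 34.3, 2.89 and 13.9 CPM in HRP2-KO and 12.04, 5.17 and 1.22 CPM in WT (adjusted p = 0.420). Without HRP2-KO replicate 7, edgeR called Col1a1, Col1a2, Runx2 and Msx2 higher, where 12.1% of all tested genes were called higher. The same fit called 11 of the 12 macrophage markers lower, where 12% of all tested genes were called lower. Genotype and macrophage content thus differed together in that fit, and the part of each in these calls was not tested. DESeq2, with all libraries, called 4 higher, Col1a1, Col1a2, Runx2 and Msx2, against 5.45% of genes called higher.

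Among 15 tested genes of the mineralization pathway other than the members, 8 had a positive and 7 a negative fitted change, around a median of 0.14 on the log2 scale, and 0 passed the threshold. Without HRP2-KO replicate 7, 2 of 16 were called, both higher: Fam20a and, named after its values were seen, Anxa2 (adjusted p = 0.0325), in a fit that called 12.1% of all tested genes higher, so the share was near the background. Fam20a, a pseudokinase partner of the secreted kinase FAM20C, stood at 176, 78.5 and 89.9 CPM in the HRP2-KO libraries (6, 7, 44) and at 33.5, 28.1 and 32.7 CPM in WT replicates 10, 11 and 12, with an adjusted p of 0.0970 in edgeR, of 0.0160 without HRP2-KO replicate 7 and of 9.9e-05 in DESeq2. Sparc, the collagen-binding matrix protein osteonectin, stood at 5789, 4040 and 3778 CPM in HRP2-KO and at 1988, 2784 and 2425 CPM in WT (adjusted p = 0.173). HRP2-KO lay wholly above WT for both. Of the 15 tested genes of this list, 3 lay wholly above and 2 wholly below WT. The shares over all tested genes were 17% and 14%, so these counts were near the background.

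The inhibitor of mineralization Mgp, matrix Gla protein, had a negative fitted change, at 174, 314 and 184 CPM in HRP2-KO and at 364, 445 and 1213 CPM in WT (adjusted p = 0.180). For Mgp, HRP2-KO lay wholly below WT. Smpd3, a sphingomyelinase needed for normal bone mineral, stood at 51.1, 18.8 and 21.4 CPM in HRP2-KO and at 146, 96.5 and 46.9 CPM in WT (adjusted p = 0.177), where HRP2-KO replicate 6 exceeded WT replicate 12. DESeq2 called Mgp and Smpd3 lower (adjusted p = 0.0404 and 0.0399) and Sparc higher (adjusted p = 0.0175). Of the 18 genes of this pathway list that it fitted, it called 2 higher and 2 lower. The shares of all genes given an adjusted p were 5.45% called higher and 4.62% called lower. Ank, which brings pyrophosphate out of the cell, overlapped, at 182, 61.0 and 170 CPM in HRP2-KO and 98.2, 144 and 206 CPM in WT (adjusted p = 0.897). Fam20c, the kinase that phosphorylates the SIBLING proteins, stood at 21.8, 25.2 and 9.47 CPM in HRP2-KO and 57.4, 24.6 and 21.4 CPM in WT (adjusted p = 0.346).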

How the data were processed

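RNA was measured in 3 HRP2-KO and 3 WT BMSC samples, grouped and numbered by their titles. Reads were mapped with BWA (no version) to GRCm38.p6, per the submitters' processing notes. No source names the counting program, annotation or strand setting; overlapping genes and paralogs are therefore uncertain. The authors deposited estimated counts per gene, without normalization, and TPM and FPKM values, which are scaled for gene length and depth, per the file headers. A further 30 columns (24 averages, 6 normalized counts) were not used.

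Estimated counts were rounded. Genes were filtered with filterByExpr (minimum count 10, minimum total 15), normalized with TMM and tested with edgeR 4.0.16 (R 4.3.3, quasi-likelihood F-test on genotype, two-sided, Benjamini-Hochberg, threshold 0.05). Standard errors are the log2 fold change divided by the square root of F, and 95% intervals use the fit's t distribution. Depth was 20184500 to 20680800 counts per library. The test was also run on simulated counts, drawn independently for each gene. Those counts lack shifts shared by many genes of a library, so they do not vouch for the calls here. TPM was used between genes, and FPKM for transcript lengths.

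Members and lists were chosen with earlier results of these data known. Named are all members, Hdgfl2, the 4 smallest p of each pathway list with fixed defining genes, and the 3 genes most like Alpl and Spp1; a few others named are marked or come from marker lists. A listed result is not reported here. Positions come from RefSeq GRCm38.p6, matched by Entrez ID for 99.7% of genes. Alternatives were RLE factors, 2 other filters, DESeq2 1.42.0, limma 3.58.1 (voom, and log2(TPM + 1) or log2(TPM + 0.1)), a macrophage covariate, summed osteocalcin genes and each library left out. Figures used matplotlib 3.10.9.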

Additional observations from a re-analysis of the deposited data

How the results depend on the processing

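No member passed the threshold under any of the 15 alternatives to edgeR with all libraries (range 0 to 0), which called 0% to 24.1% of tested genes, and between 4 and 7 members had a positive change. The number of members fitted differed between settings. A positive change was seen in 4 of 7 on both TPM scales and in 5 of 6 with a filter of 1 CPM in 3 samples. It was seen in 6 of 10 in DESeq2 and in 7 of 8 without WT replicate 10. No paired analysis was possible because the genotypes share no replicate numbers. The sign changed in these cases, and the cause was not tested: Spp1 at -0.23 on both TPM scales, and Phex at -0.54 with the macrophage covariate. With each library left out in turn, the log2 fold change ran from -0.033 to 2.09 for Alpl, from -0.33 to 2.14 for Ibsp, from -0.51 to 0.82 for Spp1 and from -0.87 to 0.28 for Bglap2, while 4 members kept their sign: Bglap ran from -1.84 (without HRP2-KO replicate 44) to -0.019 (without HRP2-KO replicate 7), Phex from 0.25 (without WT replicate 10) to 1.14 (without HRP2-KO replicate 7), Phospho1 from 0.15 to 0.43 and Enpp1 from 0.15 to 0.56. The number of members with non-overlapping groups ran from 0 to 2 in the same fits, an alternative chosen after seeing the data. With a library fewer, groups separate more easily. The share over all tested genes was not computed for these fits, so the number cannot be set against a background. TPM scaling lowered the median change of all genes to -0.21 from 0.02. In HRP2-KO replicate 44 the shortest of 5 length groups of transcripts, which holds Spp1, Bglap and Bglap2, deviated from the average library by 0.37 and the longest group, which holds Enpp1, by -0.57 on the log2 scale. Depth limits Dmp1, Mepe, Phex and the osteocalcin genes, at 66.45 counts or fewer per library.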

Other observations

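Stromal markers were present throughout: all 9 had counts in every library and summed to 17134, 16904 and 13331 CPM in HRP2-KO replicates 6, 7 and 44 and to 4227, 6236 and 5588 CPM in WT replicates 10, 11 and 12, while 4 of the 9 had a positive fitted change. Most of the HRP2-KO sum was Col1a1. Without Col1a1, an alternative chosen after seeing the data, the other 8 summed to 1400, 4968 and 1177 CPM in HRP2-KO and to 2643, 2948 and 3733 CPM in WT, so HRP2-KO replicates 6 and 44 lay below all WT libraries and replicate 7 above them. Thy1, a surface marker of stromal cells, stood at 3.51, 395 and 21.3 CPM in HRP2-KO and at 199, 187 and 691 CPM in WT, and the groups overlapped. Adipocyte markers summed to 65.5, 163 and 192 CPM in HRP2-KO and to 154, 133 and 50.1 CPM in WT, and this sum joined genes that separated in opposite directions, named after their values were seen. Fabp4, a fatty acid binding protein, stood at 39.3, 87.8 and 157 CPM in HRP2-KO and at 18.6, 25.8 and 14.8 CPM in WT (adjusted p = 0.111, edgeR). Adipoq, the adipocyte hormone adiponectin, had 2, 0 and 1 counts in HRP2-KO and 95, 409 and 33 counts in WT (adjusted p = 0.0978, edgeR). Of the 4 adipocyte markers tested, Fabp4 alone had a positive fitted change and 3 had a negative one. Among these 4, 1 lay wholly above and 1 wholly below WT, against 17% and 14% of all tested genes. Endothelial markers summed to at most 6.59 CPM in HRP2-KO and 19.6 CPM in WT, and B lymphocyte markers to at most 0.695 CPM in any library. Of the osteocyte genes, Ptprz1 stood at 0.781, 1.498 and 0.347 CPM in HRP2-KO and 1.09, 2.08 and 5.51 CPM in WT (adjusted p = 0.254, edgeR), and Pdpn, podoplanin, at 90.7, 38.9 and 161 CPM in HRP2-KO and 38.7, 118 and 254 CPM in WT (adjusted p = 0.702). Cd44, a receptor for hyaluronan and osteopontin, stood at 239, 356 and 312 CPM in HRP2-KO and 228, 267 and 319 CPM in WT (adjusted p = 0.703).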
